A study of Mus musculus and Homo sapiens with 10 samples.

Results

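In mouse MMTV-Myc mammary tumour cells, acetylation of histone H3 at lysine 27 (H3K27ac) was called lower at 166 regions of the genome after knockdown of Cbx8 and higher at 16. These 182 regions are all entries of both H3K27ac lists that the authors deposited for this line, out of 966 regions in the mouse lists of the series and 4818 in all its lists. They were chosen by the authors' comparison of 1 knockdown library with 1 control library. Both lists carry the authors' thresholds in their names, 1.8 for the fold and 1e-08 for the q-value. The direction of each region is therefore a property of how it was chosen and is given here as a description. The fold and q-value of single regions are not used here, so members just inside and just outside the thresholds cannot be set side by side.

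The name MMTV-Myc stands for a Myc transgene under the mouse mammary tumour virus promoter, which is used to drive mammary tumours in mice. The control library, MMTV-Myc shScr H3K27ac, came from cells carrying a scrambled hairpin and labelled as wild type for Cbx8. The knockdown library, MMTV-Myc shCbx8 H3K27ac, came from cells infected with pLKO.1 lentivirus carrying hairpin RNA against Cbx8. Cells were kept under puromycin, at 2 ug/ml for at least 4 days, and both groups are of the line that the labels call MMTV-Myc. The labels do not say which or how many hairpins went into a library, and the level of Cbx8 in these cells was not analysed here. Nucleosomes were released with micrococcal nuclease, an enzyme that cuts the linker DNA between them, and the precipitated DNA was read as single-end reads of 100 bp. How many regions the authors tested is not known here, so the counts of 166 and 16 cannot be given as shares of all regions tested. Each condition had 1 library, so no difference below has a replicate check and no test between conditions was possible.

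Acetylation of lysine 27 is placed by the acetyltransferases p300 and CBP and marks active promoters and active enhancers. The same lysine can instead be trimethylated by Polycomb repressive complex 2 (H3K27me3), and a single histone tail cannot carry both marks at that residue. Trimethylation of lysine 4 (H3K4me3) is concentrated at active promoters and is placed by complexes that contain Wdr5. Cbx8 is a chromodomain subunit of Polycomb repressive complex 1, and the title of the study places it with Wdr5 in a role outside that canonical one.

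Losses outnumbered gains. There were 10.4 lower regions for each higher one, and lower regions were 91.2% of the 182 (exact Clopper-Pearson 95% interval 86.1 to 94.9%, regions as units and counting error only). Lower regions covered 381.9 kb and higher regions 28.8 kb, so 93.0% of the changed base pairs were in lower regions. In the same cells the lower share was 97.5% of the 719 changed H3K4me3 regions (96.1 to 98.5%) and 96.9% of the 65 changed H3K27me3 regions (89.3 to 99.6%). All 3 marks thus had mostly losses in the lists. The thresholds of the H3K4me3 and H3K27me3 lists were not compared with those of the H3K27ac lists here. Depth and any scaling between the libraries are unknown here, and their part in this balance was not tested. The interval for H3K27ac ended below that for H3K4me3 and overlapped that for H3K27me3, and the difference between marks was not tested, since regions of a library are not replicates.

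Lower H3K27ac regions came in widely different lengths. The median was 2000 bp, with extremes of 300 and 6600 bp. Of the 166, 23 were at most 1000 bp long, 60 were between 1001 and 2000 bp, 40 between 2001 and 3000 bp, 23 between 3001 and 4000 bp, and 20 were longer. The 12.0% above 4000 bp compares with 3.71% of the 701 lower H3K4me3 regions and 42.9% of the 63 lower H3K27me3 regions. The median was 1850 bp for lower H3K4me3 and 3800 bp for lower H3K27me3. By the share above 4000 bp and by the median, lower H3K27ac lay between the other marks and closer to H3K4me3. Which tool called the regions of each list is not known here, and its part in these lengths was not tested. Higher H3K27ac regions had a median of 1475 bp and ranged from 400 to 5150 bp.

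**Figure D1:**
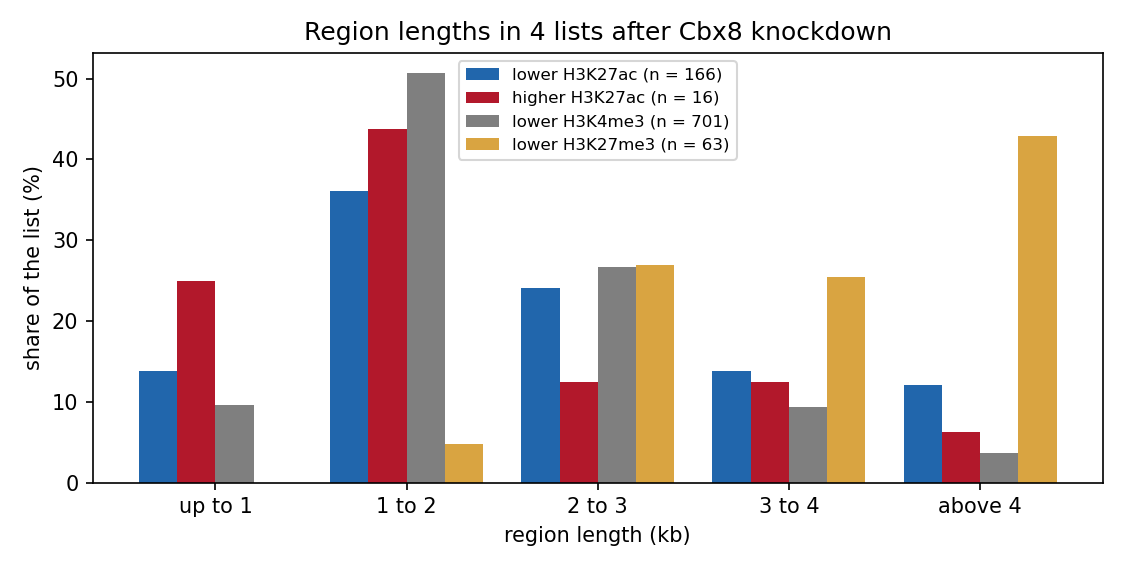
Share of each list (vertical axis, percent of regions) by region length (horizontal axis, kb) for lower and higher H3K27ac, lower H3K4me3 and lower H3K27me3 in MMTV-Myc cells. Lower H3K27ac has 12.0% of its regions above 4 kb, between lower H3K4me3 (3.71%) and lower H3K27me3 (42.9%).

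The deposited lists are not sorted by position, and their order went with length. In the first 34 entries of the lower list the median length was 1000 bp (range 300 to 2250 bp). It was 1400 bp in entries 35 to 67, 2300 bp in entries 68 to 100, 2600 bp in entries 101 to 133 and 3600 bp in entries 134 to 166 (range 1750 to 6600 bp). Spearman's rho between list position and length was 0.82 over the 166 lower regions and 0.89 over the 16 higher regions, where the regions of a list share both libraries. The lower H3K27me3 list ran the same way (rho 0.80, n = 63), and the lower H3K4me3 list ran the other way, with long regions first (rho -0.75, n = 701). No source used here says what the order stands for.

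**Figure D2:**
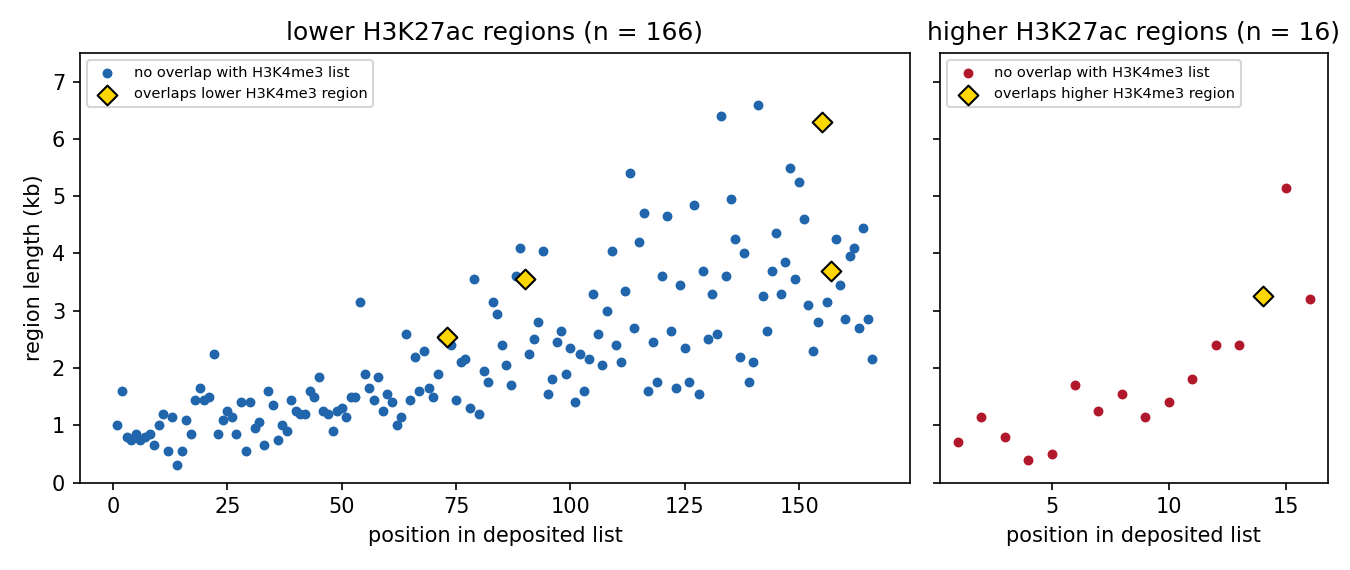
Length of each region (vertical axis, kb) against its position in the deposited list (horizontal axis) for 166 lower and 16 higher H3K27ac regions. Each point is 1 region, diamonds mark the 4 lower and 1 higher regions that overlap an H3K4me3 region changed in the same direction, and early entries of both lists are short.

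The entries that open the lower list were all short, from 650 to 1600 bp. The first was a region of 1000 bp on chromosome 11 (mm9, 8691901 to 8692900), and the second one of 1600 bp on chromosome 6 (86616951 to 86618550). Chromosome 4 held the third (128952401 to 128953200) and the sixth (128673451 to 128674200). The fourth was on chromosome 15 (52644051 to 52644800), the fifth on chromosome 8 (36365151 to 36366000) and the eighth on chromosome 19 (10684851 to 10685700). Chromosome 7 held the seventh (95489501 to 95490300) and the tenth (30197401 to 30198400), and chromosome 16 the ninth (17757601 to 17758250). These first 10 entries were thus spread over 8 chromosomes. Of these 10, the tenth alone had a lower H3K4me3 region within 50000 bp, at a gap of 38.3 kb. Of all 166 lower regions, 21 had one within that distance.

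The 20 longest lower regions, of 4050 to 6600 bp, all stood at list position 89 or later. The longest were on chromosome 5 (143655101 to 143661700, 6600 bp), chromosome 13 (30073451 to 30079850, 6400 bp) and chromosome 2 (154393301 to 154399600, 6300 bp). Next came regions on chromosome 8 (86589051 to 86594550, 5500 bp), chromosome 11 (115881001 to 115886400, 5400 bp) and chromosome 7 (6233801 to 6239050, 5250 bp). Of these 6, the region on chromosome 2 alone overlapped a lower H3K4me3 region, beside 4 of all 166 lower regions. The nearest lower H3K4me3 regions to the others lay from 65050 bp away, on chromosome 8, to 10645550 bp away, on chromosome 7.

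Regions from 4600 to 4950 bp lay on chromosome 2 (29863901 to 29868850 and 33510951 to 33515650), chromosome 4 (132063201 to 132068050), chromosome 3 (95743301 to 95747950) and chromosome 11 (95852951 to 95857550). Those from 4200 to 4450 bp lay on chromosome 12 (8503701 to 8508150 and 67834651 to 67838900), chromosome 3 (110050451 to 110054800), chromosome 1 (36979001 to 36983250) and chromosome 10 (62219751 to 62223950). The last 4 of the 20 were 2 of 4100 bp, on chromosome 13 (15688801 to 15692900) and chromosome 11 (120432751 to 120436850), and 2 of 4050 bp, on chromosome 11 (59639251 to 59643300) and chromosome 10 (117614851 to 117618900). Chromosome 11 held 4 of the 20, beside 19 of all 166 lower regions, and chromosome 2 held 3, beside 22 of the 166. A lower H3K4me3 region lay within 50000 bp of 2 of the 20, beside 21 of all 166 lower regions. These 2 were the one on chromosome 2 that overlapped it and the one on chromosome 11 at 120432751, at a gap of 21.15 kb.

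The spacing of lower regions has no reference here from unchanged H3K27ac regions, so it cannot be read as scattered or grouped. The median gap from a lower region to the nearest other lower region was 3.81 Mb (interquartile range 1.24 to 9.06 Mb, n = 166). Within 50000 bp of another lower region lay 6 of the 166, and within 100000 bp 12, which formed 6 pairs. The closest pair was on chromosome 2, where regions of 2450 bp (173088351 to 173090800) and 2400 bp (173091451 to 173093850) were 650 bp apart and together spanned 5500 bp. On chromosome 4, regions of 2100 bp (141620951 to 141623050) and 1750 bp (141626251 to 141628000) were 3200 bp apart. The pair on chromosome 11 (116018251 to 116019700 and 116062001 to 116064400) was separated by 42.3 kb. The other pairs, on chromosome 2 (162823751 to 162826000 and 162879901 to 162883450), chromosome 1 (93354351 to 93356900 and 93435701 to 93438250) and chromosome 6 (29416651 to 29419350 and 29505351 to 29506600), had gaps of 53.9, 78.8 and 86 kb. In 4 of the 6 pairs, at least 1 region had a lower H3K4me3 region within 50000 bp, the exceptions being the pair on chromosome 11 and that at 162823751 on chromosome 2. Over single regions, 21 of all 166 lower ones had such a region. A pair offers 2 regions, which can share 1 H3K4me3 neighbour, so 4 of 6 cannot be read as high or low.

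Overlap with a lower H3K4me3 region was found at 4 of the 166 lower H3K27ac regions, 2.41% (95% interval 0.66 to 6.05%), and at 4 of the 701 lower H3K4me3 regions, 0.57% (0.16 to 1.45%). The 701 regions cover 1416.3 kb, and the share of unchanged H3K27ac regions that overlap them is not known here, so these shares cannot be read as high or low. The 4 places differed in how the marks lay on each other. On chromosome 17 both regions were 3700 bp long and the H3K4me3 region (29230251 to 29233950) was shifted by 550 bp towards lower coordinates from the H3K27ac region (29230801 to 29234500), so that 85.1% of each was shared. On chromosome 2 the H3K4me3 region (154393601 to 154397150) lay wholly inside the H3K27ac region (154393301 to 154399600) and covered 56.3% of it, toward its low-coordinate end. On chromosome 1 the H3K4me3 region at 93354801 to 93356700 also lay wholly inside its H3K27ac region (93354351 to 93356900), close to the centre, and covered 74.5%. Elsewhere on chromosome 1 the marks overlapped only at an edge, with 29.6% of the H3K27ac region (79854951 to 79858500) and 42.9% of the H3K4me3 region (79853551 to 79856000) shared.

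These shared losses were at list positions 73, 90, 155 and 157 of the 166 for H3K27ac, and at 245, 270, 35 and 13 of the 701 for H3K4me3, given in the same order of places. All 4 H3K27ac regions, of 2550, 3550, 6300 and 3700 bp, were longer than the list's median of 2000 bp. A longer region has more room to overlap another, and the part of length in this was not tested.

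**Figure D3:**
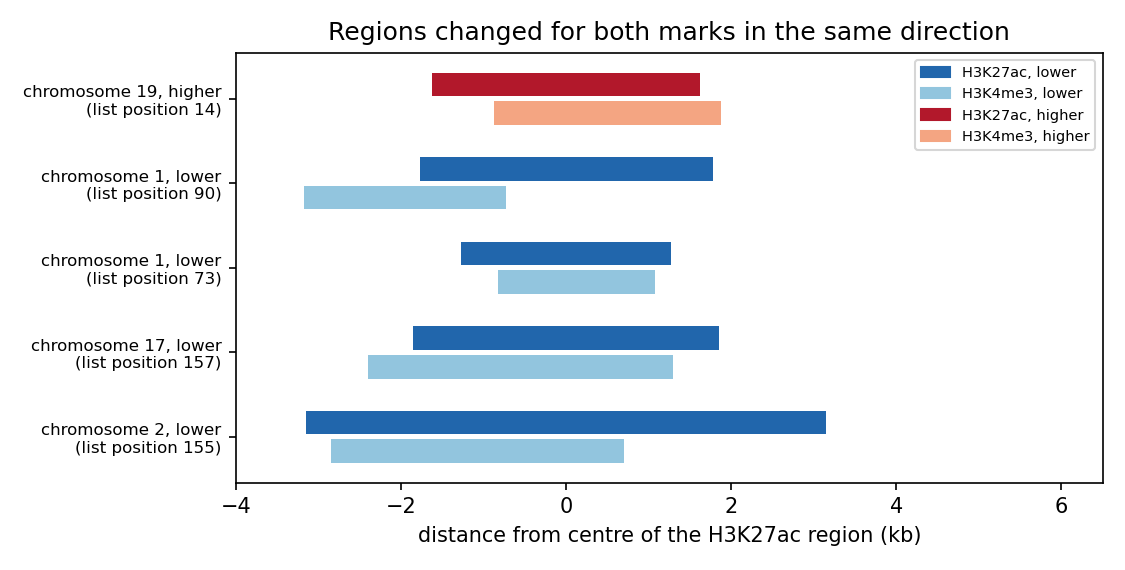
The 5 places where an H3K27ac region overlapped an H3K4me3 region changed in the same direction, drawn to scale as distance from the centre of the H3K27ac region (horizontal axis, kb). Each row has the H3K27ac region above and the H3K4me3 region below it, with 1900 to 3550 bp shared at 3 lower places, 1050 bp at the other, and 2500 bp at the higher one on chromosome 19.

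Lower H3K4me3 regions also lay beside a few lower H3K27ac regions without touching them. On chromosome 2 the regions for H3K27ac (28372051 to 28374350) and H3K4me3 (28368351 to 28370400) were 1650 bp apart. On chromosome 6 the gap was 4150 bp (29416651 to 29419350 and 29423501 to 29424650), and on chromosome 7 it was 4250 bp (19885651 to 19887750 and 19892001 to 19896250). The closest pair of lower H3K27ac regions, on chromosome 2, lay 5900 and 8950 bp from 1 lower H3K4me3 region (173099751 to 173102850). Within 50000 bp, 21 of the 166 had a lower H3K4me3 region, and within 1 Mb 94 did. The median gap was 676.5 kb. These distances have no reference from unchanged H3K27ac regions either, and a region missing from a list may have changed by less than the threshold.

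For H3K27me3, none of the 166 lower H3K27ac regions overlapped any of the 63 lower regions, which cover 241.6 kb on 20 chromosomes, where a count of 0 has an exact 95% interval that reaches 2.20%. Within 50000 bp there were 0 such regions and within 100000 bp there was 1, at a gap of 76300 bp, and the median gap was 17011.7 kb. With so few H3K27me3 regions listed, a count of 0 and gaps of this size say nothing particular about the H3K27ac regions. The 2 higher H3K27me3 regions overlapped no lower H3K27ac region, and the smallest gap to one was 2612400 bp. A loss of acetylation with a listed gain of trimethylation at the same lysine was thus found at 0 of 166 regions. With only 2 higher H3K27me3 regions listed, such an exchange could have been seen at few places.

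Higher H3K27ac regions were few, and only 9 of the 16 had another higher region on their chromosome. The nearest neighbours were 1950600 bp apart on chromosome 14, and with so few regions this spacing cannot be read as scattered or grouped. The longest was on chromosome 7 (113378251 to 113383400, 5150 bp), followed by chromosome 19 (34680851 to 34684100, 3250 bp) and chromosome 17 (26862651 to 26865850, 3200 bp). Regions of 2400 bp lay on chromosome 14 (30160951 to 30163350) and chromosome 7 (50983401 to 50985800). Those of 1400 to 1800 bp lay on chromosome 18 (10894651 to 10896450), chromosome 12 (51634901 to 51636600), chromosome 15 (75092701 to 75094250) and chromosome 5 (33154451 to 33155850). Chromosome 8 (98297051 to 98298300) had 1 of 1250 bp, and chromosomes 10 (21330151 to 21331300) and 5 (97265301 to 97266450) had 1 each of 1150 bp. The shortest were on chromosome 14 (28209551 to 28210350, 800 bp, and 49103251 to 49103750, 500 bp), chromosome 17 (24196951 to 24197650, 700 bp) and chromosome 4 (119309901 to 119310300, 400 bp). The entry that opens the higher list was the one of 700 bp on chromosome 17, and the last 5 entries were the 5 longest.

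No higher region overlapped a lower one. Both lists hold opposite directions of 1 comparison of the same 2 libraries, which left little room for such an overlap. The smallest gap between the directions was 195050 bp, on chromosome 14 between the higher region at 49103251 and a lower region. Of the 16, 2 had a lower region within 1 Mb, and these distances have no reference from unchanged H3K27ac regions. On chromosome 19, 1 higher region overlapped 1 of the 18 higher H3K4me3 regions (34681601 to 34684350), sharing 2500 bp, which is 76.9% of the H3K27ac region and 90.9% of the H3K4me3 region. That place lay between other higher H3K4me3 regions, at 34657551 to 34659700 and 34714351 to 34718100, with gaps of 21.15 and 30.25 kb. None of the other 15 higher H3K27ac regions had a higher H3K4me3 region within 100000 bp. None of the 16 overlapped a lower H3K4me3 region. Only 11 of the 16 lay on a chromosome with a listed higher H3K4me3 region. The exact interval over regions was 0.16 to 30.2% for 1 of 16, and for 0 of 16 it reached 20.6%. With only 18 higher H3K4me3 regions listed and no reference from unchanged H3K27ac regions, these counts cannot be read as high or low.

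Lower H3K27ac regions were found on 20 chromosomes and higher ones on 11. Chromosome 2 held 22 of the 166 lower regions, 13.3% of the list (95% interval 8.50 to 19.4%), beside 9.84% of lower H3K4me3 (7.74 to 12.3%). It held 0 of the 16 higher regions, where the 95% interval reaches 20.6%. Chromosome 11 held 19, 11.4% (7.03 to 17.3%) beside 8.99% of lower H3K4me3, and likewise 0 higher. On chromosome 13 the H3K27ac list had 6.63% of its lower regions (3.35 to 11.5%, 11 regions), the H3K4me3 list 2.85% (1.75 to 4.37%) and the H3K27me3 list 14.3% (6.75 to 25.4%). Chromosome 4 went the other way, with 6.63% of lower H3K27ac and 10.6% of lower H3K4me3. Chromosome 14 had more higher than lower regions, 3 against 2. The intervals of the H3K27ac and H3K4me3 lists overlapped on each of these chromosomes, which were picked for their shares. The lengths of the chromosomes and the density of genes were not taken into account.

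**Figure D4:**
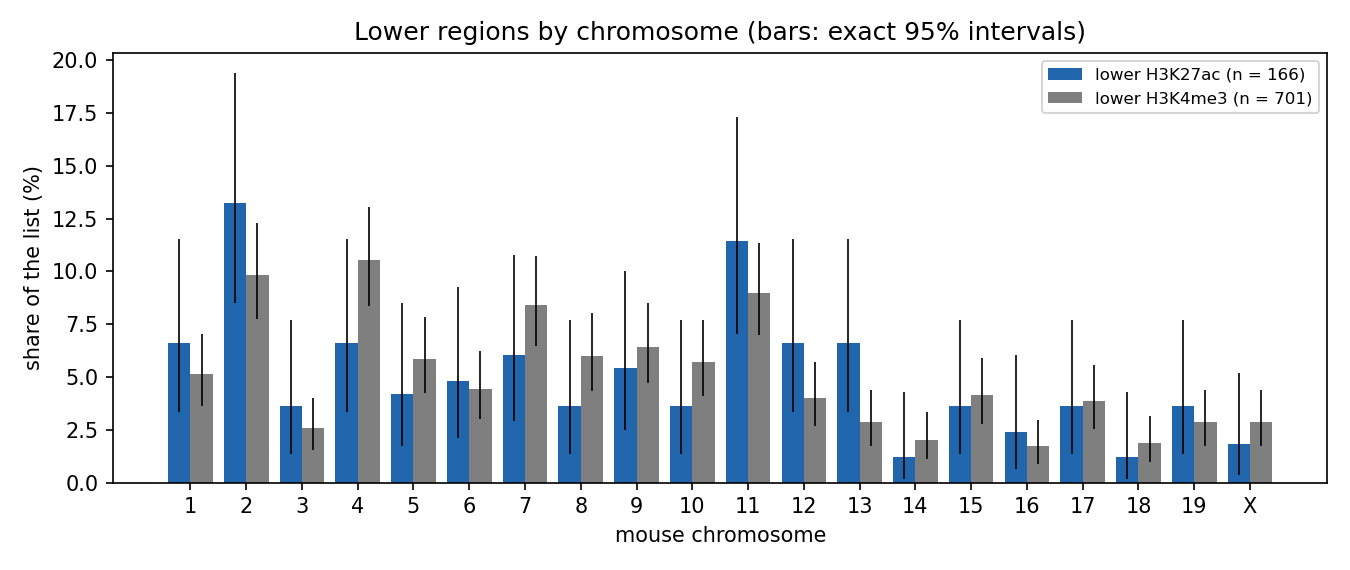
Share of the lower H3K27ac list (n = 166) and of the lower H3K4me3 list (n = 701) on each mouse chromosome (vertical axis, percent of the list), with exact 95% intervals over regions as bars. Chromosomes 2 and 11 hold the most lower H3K27ac regions, 13.3% and 11.4%, and their intervals overlap those of H3K4me3.

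Which genes these regions belong to, and how they divide between promoters and distal sites, was not analysed here, because the gene positions at hand were of the assembly GRCm38.p6 and the lists are in mm9. For the same reason no sequence of a region is given.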

How the data were processed

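Chromatin immunoprecipitation with sequencing was carried out in MMTV-Myc cells with 1 library per hairpin and antibody. Groups follow the labels. The deposited lists hold 3 columns (chromosome, start, end) and no score or read count, so depth is unknown and no size of change can be given per region. The build mm9, SICER, MACS2 2.1.0, Bowtie 1.0.0 and FastQC 0.10.0 are named in the submitters' processing notes. The series has an input library for the MMTV-Myc cells with the scrambled hairpin and none for those with the Cbx8 hairpin. The tool that called the changed regions, the use of the input library and any scaling for depth are not given in the sources used here.

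Starts lay on a grid of 50 bp and ends 1 bp below it, so ends were read as included, and positions are printed counted from 1. Overlap needed at least 1 bp (bedtools 2.31.1). Gaps are the base pairs between region edges. Intervals are exact Clopper-Pearson intervals (scipy 1.17.1) over regions and cover counting error only. The code that counts overlaps, gaps, neighbours and merged regions was tested on simulated data, and the rest of the code was not. Regions named are the 20 longest and first 10 listed lower ones, all 16 higher ones, and those within 5000 bp of a changed region of another mark; close pairs and other neighbours were named after their values were seen. The members, and the lists and comparisons, were chosen with earlier results of these data known. Alternatives were a length minimum, merging, base pairs in place of counts, autosomes alone, and other overlap and distance limits. The planned promoter shares, gene lists, marker lists and sequence content were not run, for want of an mm9 annotation here.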

Additional observations from a re-analysis of the deposited data

How the results depend on the processing

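Of 13 alternative values over 7 results, 11 stayed within the interval, the standard deviation of lengths or the 1.5-fold range used to judge them. The lower share of 91.2% ranged from 91.1% (regions closer than 5000 bp merged) to 94.6% (only regions of at least 1900 bp, the median of both lists). The count of lower H3K27ac regions at lower H3K4me3 regions went from 4 to 7 when a gap of up to 5000 bp counted in place of an overlap. The count of lower regions near another lower region went from 6 to 12 with 100000 bp in place of 50000 bp. With 10000 bp that count was 4, at the edge of the 1.5-fold range, and was taken as within it. Both wider limits can only add regions. An overlap count of 0 with H3K27me3 could not have fallen under a stricter definition. With autosomes alone the median length of higher regions could not change, as 0 of them were on chromosome X. Only 3 lower regions were on chromosome X, and without them the lower median went from 2000 to 2050 bp. Such fixed or nearly fixed values are counted among the 11 and say little about stability. No paired analysis was possible because each condition had 1 library. Promoter shares and genes tied to regions, with their alternatives, were not run. Depth is unknown, so no limit of detection can be given for regions missing from the lists.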
